A study of Mus musculus with 4 samples.

Results

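Several enzymes of muscle energy supply exist as a muscle-type isoform and a partner isoform made by a separate gene and found in many tissues, in brain or in liver. The 10 genes described here form 5 such pairs: the cytosolic creatine kinases Ckm and Ckb, the phosphoglycerate mutases Pgam2 and Pgam1, the glycogen phosphorylases Pygm and Pygb, the enolases Eno3 and Eno1, and the phosphofructokinases Pfkm and Pfkl. They were taken by gene symbol from the 13824 symbols listed in each library, and all 10 were found, with 28 of the 36231 listed transcripts. RNA was sequenced from C2C12 cells, an immortal clonal line of mouse myoblasts that fuse into myotubes when serum is lowered. Of the 4 libraries, 2 came from cells transfected with siMEF2A, an siRNA against the transcription factor gene Mef2a, and 2 from cells transfected with a scrambled siRNA. All cells received 30 nM siRNA with Lipofectamine, and RNA was taken after 48 h of differentiation under 2% horse serum. The labels leave unsaid whether libraries of a group stem from separate cultures, so a p-value covers only how much these libraries vary, and that variation may be technical.

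Creatine kinase moves a phosphate between ATP and creatine, so that contracting muscle can refill ATP from phosphocreatine. Glycogen phosphorylase frees glucose 1-phosphate from glycogen, phosphofructokinase commits sugar phosphate to glycolysis, and phosphoglycerate mutase and enolase act late in the same pathway. As myoblasts become myotubes, muscle-type isoforms are switched on beside partner isoforms that the dividing cells already make, and in many muscle genes this involves MEF2 proteins together with E-box-binding factors of the MyoD family. Lack of PYGM in humans causes McArdle disease and lack of PFKM causes Tarui disease, both marked by exercise intolerance.

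The values are FPKM, that is, fragment counts divided by transcript length and library size, which the authors gave for each transcript and which were summed here for each gene. The commonest ratio between libraries among low FPKM values put depth at 0.849 and 0.849 in the siMEF2A libraries and 1.04 in scrambled replicate 2. Each depth is relative to scrambled replicate 1. Only 12 or 13 of 600 genes shared the ratio, which was not checked against chance, and absolute depth was unknown. The targeted gene Mef2a was at 12.7 and 14.3 FPKM in the siMEF2A libraries, against 25.8 and 32.2 FPKM in the scrambled libraries, so that its siMEF2A mean was 46.5% of the scrambled mean (log2 fold change -1.05, SE 0.15, limma adjusted p = 2.43e-05). Of 11819 genes tested with limma on log2(FPKM + 1), 206 passed at an adjusted p under 0.05, which is 1.74%. Of these, 158 were lower (1.34% of the genes tested) and 48 higher (0.406%) in siMEF2A, and 76.7% of the calls were thus lower. With median-ratio scaling of the libraries 135 were lower and 14 higher, so that 90.6% of the calls were lower. Fold changes below are siMEF2A minus scrambled on the log2(FPKM + 1) scale, where changes of genes at low FPKM come out too small.

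Among the muscle-type isoforms, 3 of 5 fell in siMEF2A, against a background of 1.34% of all genes called lower, and none rose. They were Ckm at 39.9%, Pgam2 at 36.2% and Pygm at 49.1% of their scrambled means. The other muscle-type isoforms, Eno3 at 85.1% and Pfkm at 84.8% of scrambled, did not pass the test. Of the 5 partner isoforms, 0 passed in limma and 1, Ckb, had an unadjusted p under 0.05. The median log2 fold change was -0.76 for the 5 muscle-type isoforms and -0.01 for the 5 partners, beside 0.04 for all genes tested.

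**Figure D1:**
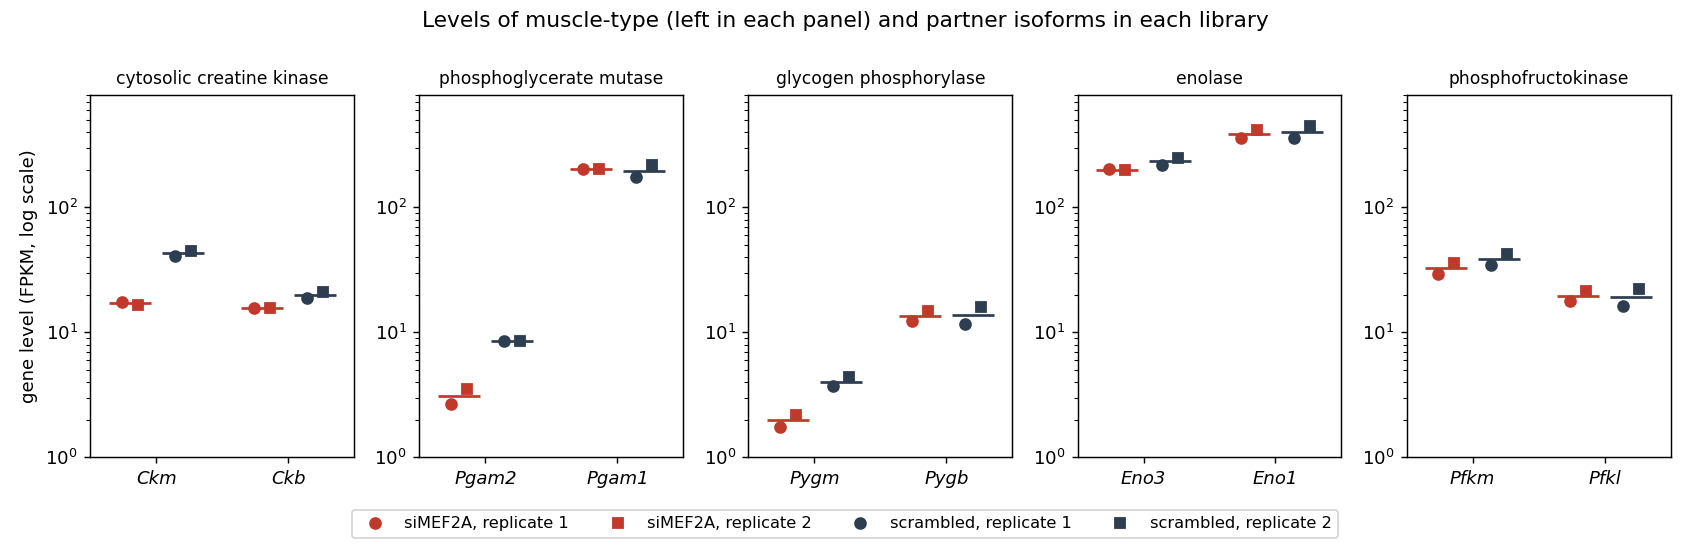
Level of each isoform in FPKM on a log axis, one panel for each enzyme, with the muscle-type isoform on the left of the panel. Points are the 4 libraries (siMEF2A in red, scrambled in dark blue) and bars are group means. Ckm, Pgam2 and Pygm lie lower in both siMEF2A libraries than in both scrambled ones, while Pgam1, Pygb, Eno1 and Pfkl overlap.

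Ckm (ENSMUSG00000030399, mm10 chromosome 7, 19411094 to 19421583, plus strand) encodes the muscle creatine kinase, part of which sits at the M-line of the sarcomere. It was at 17.6 and 16.5 FPKM in the siMEF2A libraries, against 41.1 and 44.6 FPKM in the scrambled libraries. Both siMEF2A libraries were thus far below both scrambled ones. Ckm fell by 1.28 on the log2 scale (SE 0.15, limma adjusted p = 5.06e-07). Ckb (ENSMUSG00000001270, chromosome 12, 111669355 to 111672338, minus strand), the brain-type creatine kinase that myoblasts make before they differentiate, was at 15.6 and 15.5 FPKM in siMEF2A and at 19.0 and 21.2 FPKM in scrambled. Its groups did not overlap either, but the log2 difference of -0.35 (SE 0.15, 95% interval -0.65 to -0.04) missed the threshold (limma adjusted p = 0.573, unadjusted p = 0.0271). The 95% intervals here are for each gene alone and are not adjusted for the number of genes. Both siMEF2A libraries were under both scrambled ones for 4 of the 5 muscle-type isoforms, for 1 of the 5 partners and for 9.12% of all genes tested.

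Ckm made up 53.0% and 51.5% of the summed creatine kinase FPKM of the pair in siMEF2A, against 68.4% and 67.7% in scrambled. The pair as a whole was at 32.7 ± 0.859 FPKM in siMEF2A and 62.9 ± 4.02 FPKM in scrambled (SD, n = 2 each), so that 51.9% of the scrambled sum remained. Creatine kinase was the pair whose summed level was furthest below scrambled.

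Reads of Ckm carry an uncertainty on their strand. Exons of the noncoding gene A930016O22Rik overlap those of Ckm on the opposite strand, and its listed transcript of 1214 bases shares 458 bases with the Ckm transcript in exact runs of 100 bases or more. A930016O22Rik was at 0.940 and 1.31 FPKM in siMEF2A, against 3.74 and 2.58 FPKM in scrambled (log2 fold change -0.96, SE 0.16, limma adjusted p = 1.14e-04). As use of strand in counting is not stated, reads of the antisense gene and of Ckm cannot be told apart where they overlap. Its level was far below that of Ckm in each library.

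Pgam2 (ENSMUSG00000020475, chromosome 11, 5801640 to 5803733, minus strand) encodes the muscle phosphoglycerate mutase. It was at 2.68 and 3.51 FPKM in the siMEF2A libraries, against 8.58 and 8.52 FPKM in the scrambled libraries. The lower group was again siMEF2A, without overlap, and the gap between the groups was larger than that between libraries of a group. Pgam2 fell by 1.23 on the log2 scale (SE 0.15, limma adjusted p = 1.01e-06). Pgam1 (ENSMUSG00000011752, chromosome 19, 41911871 to 41918664, plus strand), the isoform of most other tissues, was at 201 and 203 FPKM in siMEF2A and at 175 and 218 FPKM in scrambled. The scrambled libraries lay on either side of the siMEF2A ones, and the log2 difference was 0.05 (SE 0.18, 95% interval -0.32 to 0.42, limma adjusted p = 1.00). Pgam2 was the minor form in every library, with 1.31% and 1.70% of the summed FPKM of the pair in siMEF2A and 4.67% and 3.77% in scrambled. The sum of the pair was accordingly nearly the same, at 205 ± 2.00 FPKM in siMEF2A and 205 ± 30.1 FPKM in scrambled (SD, n = 2 each).

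Pygm (ENSMUSG00000032648, chromosome 19, 6384399 to 6398459, plus strand) encodes the muscle glycogen phosphorylase and had the lowest level of the 10 genes. It was at 1.77 and 2.20 FPKM in the siMEF2A libraries, against 3.70 and 4.37 FPKM in the scrambled libraries. The groups did not overlap, and Pygm fell by 0.76 on the log2 scale (SE 0.15, limma adjusted p = 0.00192). This call was lost without siMEF2A replicate 1 (log2 fold change -0.65, limma adjusted p = 0.0517). Listed transcripts of Pygm numbered 3. The most abundant, ENSMUST00000035269, a coding transcript of 2874 bases, was at 1.14 and 1.20 FPKM in siMEF2A and 3.15 and 3.74 FPKM in scrambled, or 34.1% of the scrambled mean. The other coding transcript, ENSMUST00000113483, was at 0.368 and 0.522 FPKM in siMEF2A and 0.213 and 0.241 FPKM in scrambled, so that its siMEF2A libraries were the higher ones. The remaining transcript, which retains an intron, was at 0.257 and 0.470 FPKM in siMEF2A and 0.335 and 0.390 FPKM in scrambled. Taken alone, the most abundant transcript gave a log2 fold change of -1.03 (limma adjusted p = 3.57e-05).

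Pygb (ENSMUSG00000033059, chromosome 2, 150786735 to 150831758, plus strand), the brain-type phosphorylase, was at 12.3 and 14.9 FPKM in siMEF2A and at 11.7 and 15.9 FPKM in scrambled. The groups overlapped, with a log2 difference of -0.01 (SE 0.16, 95% interval -0.33 to 0.32, limma adjusted p = 1.00). Its coding transcript was at 111% of scrambled. Its other listed transcript, ENSMUST00000135717, which retains an intron and has 531 bases, was at 8.49e-05 and 0.0174 FPKM in siMEF2A, against 1.09 and 1.93 FPKM in scrambled. That transcript was singled out after its values were seen, and its mean was under 1 FPKM. Pygm made up 12.6% and 12.8% of the phosphorylase FPKM of the pair in siMEF2A, against 24.0% and 21.6% in scrambled.

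Since MEF2A is a DNA-binding protein, the sequence before the start of each gene is shown for the isoforms that fell and for Ckb. RefSeq starts on GRCm38.p6, which has the same coordinates as mm10, were available for all 10 genes, 15 starts in all, and the 250 bases before each were searched on both strands for the consensus MEF2 site and for the E-box, CANNTG. The MEF2 site was found at 2 starts, those of Pgam2 and Ckb, and in 2.92% of the 32851 upstream windows of all genes. The match at Pgam2, CTATTTTTAA, lies at positions -80 to -71 from the RefSeq start, which is upstream of the locus in the files. The match at Ckb, CTATAAATAG, lies at -29 to -20 and overlaps the letters TATAAA, the motif of a TATA box. An E-box was found at 9 of the 15 starts and in 66.2% of all windows, with 5 at Pgam2, 2 at Pygm and 1 at Ckm. The Pygm window ends at 6384407, past the start of that locus in the files at 6384399. The Pygm E-box at -8 to -3 thus lies inside the locus in the files. In the sequences below, read 5′ to 3′ on the gene's own strand, capitals mark these matches, 10 letters for a MEF2 site and 6 for an E-box. The window of Pgam2 is chr11:5803797-5804046 on the minus strand, that of Ckb chr12:111672339-111672588 on the minus strand, that of Ckm chr7:19410844-19411093 on the plus strand and that of Pygm chr19:6384158-6384407 on the plus strand.
Pgam2: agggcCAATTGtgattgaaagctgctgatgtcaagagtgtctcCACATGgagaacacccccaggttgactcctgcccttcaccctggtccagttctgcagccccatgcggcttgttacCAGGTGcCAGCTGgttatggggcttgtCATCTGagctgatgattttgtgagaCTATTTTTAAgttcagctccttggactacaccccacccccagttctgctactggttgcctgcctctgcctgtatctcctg
Ckm: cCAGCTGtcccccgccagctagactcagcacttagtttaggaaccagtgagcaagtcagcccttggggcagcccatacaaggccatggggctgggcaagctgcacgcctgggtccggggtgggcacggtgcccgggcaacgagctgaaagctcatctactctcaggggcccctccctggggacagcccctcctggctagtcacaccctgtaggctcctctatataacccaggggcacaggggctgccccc
Pygm: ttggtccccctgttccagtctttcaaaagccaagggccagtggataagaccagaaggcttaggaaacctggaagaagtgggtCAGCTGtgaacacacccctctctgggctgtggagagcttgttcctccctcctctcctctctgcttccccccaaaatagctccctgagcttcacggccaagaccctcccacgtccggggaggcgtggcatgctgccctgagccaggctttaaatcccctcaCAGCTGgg
Ckb: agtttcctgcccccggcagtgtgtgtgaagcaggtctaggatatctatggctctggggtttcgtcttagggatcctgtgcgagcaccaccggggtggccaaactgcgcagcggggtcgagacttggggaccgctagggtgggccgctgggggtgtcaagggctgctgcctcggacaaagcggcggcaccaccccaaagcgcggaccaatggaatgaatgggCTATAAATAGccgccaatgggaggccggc
Among these genes, a MEF2 site was thus found beside 1 of the isoforms that fell and beside 1 partner that did not pass. A match is a stretch of letters and not a measured binding site, and these windows hold no distant enhancers.

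Eno3 (ENSMUSG00000060600, chromosome 11, 70657202 to 70662513, plus strand), the beta-enolase of muscle, had the highest level of the muscle-type isoforms. It was at 202 and 198 FPKM in the siMEF2A libraries, against 219 and 251 FPKM in the scrambled libraries. The groups did not overlap, but the log2 difference of -0.23 (SE 0.18, 95% interval -0.60 to 0.14) did not pass (limma adjusted p = 1.00). All 5 of its listed transcripts had a mean of at least 1 FPKM and all are coding. The main one, ENSMUST00000072841, was at 85.0% of scrambled and the next, ENSMUST00000108548, at 83.1%, and the other 3 lay between 80.6% and 105% of scrambled at under 7 FPKM. Leaving out scrambled replicate 2 moved the log2 difference of Eno3 to -0.13.

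Eno1 (ENSMUSG00000063524, chromosome 4, 150236721 to 150248879, plus strand), the alpha-enolase of most tissues, had the highest level of the 10 genes. It was at 358 and 413 FPKM in siMEF2A and at 357 and 446 FPKM in scrambled. The groups overlapped almost fully, and the log2 difference was -0.05 (SE 0.20, 95% interval -0.47 to 0.36, limma adjusted p = 1.00). Of its 10 listed transcripts 7 had a mean of at least 1 FPKM, and the main one, ENSMUST00000080926, was at 93.8% of scrambled and carried 67.1% of the gene's FPKM. The coding transcripts ENSMUST00000133839 and ENSMUST00000150175 were at 64.3 and 70.3 FPKM and at 35.4 and 53.2 FPKM in siMEF2A, against 60.6 and 76.7 FPKM and 31.7 and 40.0 FPKM in scrambled, and both overlapped. The remaining 4, coding or with a retained intron, were each under 8 FPKM and at 71.0% to 82.3% of scrambled. Eno3 made up 36.1% and 32.3% of the enolase FPKM of the pair in siMEF2A, against 38.0% and 36.0% in scrambled, with overlapping groups.

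Pfkm (ENSMUSG00000033065, chromosome 15, 98092589 to 98132451 in GENCODE M21, plus strand) encodes the muscle phosphofructokinase and was listed with 1 of its 5 annotated transcripts. Its locus in the files runs from 98038744 to 98132447 and so begins far upstream of the GENCODE start. Whether this affects its FPKM was not tested. Pfkm was at 29.3 and 35.7 FPKM in the siMEF2A libraries, against 34.3 and 42.4 FPKM in the scrambled libraries. The groups overlapped, and the log2 difference of -0.23 (SE 0.16, 95% interval -0.55 to 0.09) did not pass (limma adjusted p = 1.00). It was -0.08 without scrambled replicate 2 and -0.09 without siMEF2A replicate 1. Pfkl (ENSMUSG00000020277, chromosome 10, 77986947 to 78010083, minus strand), the liver-type subunit, was at 17.9 and 21.3 FPKM in siMEF2A and at 16.4 and 22.2 FPKM in scrambled. The siMEF2A libraries lay within the range of the scrambled ones, with a log2 difference of 0.03 (SE 0.16, 95% interval -0.30 to 0.35, limma adjusted p = 1.00). Its main coding transcript, ENSMUST00000020522, was at 101% of scrambled. Its 2 other listed transcripts were at 59.4% and 250% of scrambled, and the second of these was at 0.000184 FPKM in scrambled replicate 1 alone. Pfkm made up 62.1% and 62.7% of the FPKM of the pair in siMEF2A, against 67.7% and 65.6% in scrambled.

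The balance within a pair was also compared as the log2 ratio of (muscle-type FPKM + 1) to (partner FPKM + 1), where the added 1 draws the ratio of a low isoform towards 0. This ratio was lower in both siMEF2A libraries than in both scrambled ones for 4 of the 5 pairs. The share of other gene pairs with such a result was not computed. The pairs of Ckm, Pgam2 and Pygm each hold an isoform already called lower, so the count adds no separate support. For Pgam2 over Pgam1 the ratio was -5.78 and -5.50 in siMEF2A, against -4.20 and -4.52 in scrambled, a difference of -1.28, and of -1.53 between ratios of plain FPKM. For Ckm over Ckb it was 0.16 and 0.08 in siMEF2A, against 1.07 and 1.04 in scrambled, a difference of -0.93, and of -0.96 from plain FPKM. Ckm thus stood about level with Ckb in siMEF2A and well above it in scrambled. For Pygm over Pygb the ratio was -2.27 and -2.31 in siMEF2A, against -1.43 and -1.65 in scrambled, a difference of -0.75, and of -1.02 from plain FPKM. For Pfkm over Pfkl it was 0.69 and 0.72 in siMEF2A, against 1.02 and 0.90 in scrambled, a difference of -0.26, and of -0.27 from plain FPKM. In that pair the ratio separated the groups where the level of Pfkm did not. For Eno3 over Eno1 it was -0.82 and -1.06 in siMEF2A, against -0.70 and -0.83 in scrambled, and the groups overlapped. Ratios of plain FPKM, added after the data were seen, separated the groups for the 4 pairs named before it and overlapped for Eno3 over Eno1.

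With 2 libraries against 2, the exact two-sided permutation test cannot give a p under 0.333, which it gave for 4 pairs, and it gave 0.667 for Eno3 and Eno1 (0.417 and 0.667 adjusted over the 5 pairs). The ratios are therefore a description, and the difference in response between isoforms of a pair was not shown by a test.

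**Figure D2:**
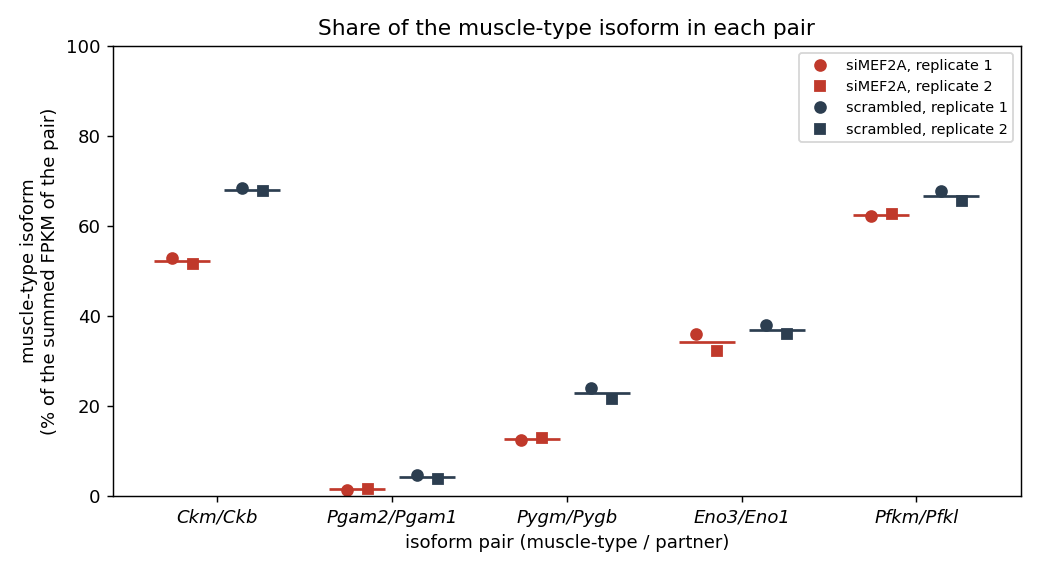
Muscle-type isoform as a percentage of the summed FPKM of its pair, for each of the 5 pairs. Points are libraries (siMEF2A in red, left; scrambled in dark blue, right) and bars are group means. The share is lower in both siMEF2A libraries for 4 pairs and overlaps between groups for Eno3/Eno1.

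The order of levels, which FPKM allows since it is per length, differed between the groups in the places of Ckm, of Eno3 against Pgam1 and of Ckb against Pfkl. The place of Eno3 against Pgam1 leaves out Pgam1-ps2, a near-identical copy of Pgam1 described below. With the FPKM of that copy added, Pgam1 would be above Eno3 in every library. In siMEF2A the order by mean was Eno1, Pgam1, Eno3, Pfkm, Pfkl, Ckm, Ckb, Pygb, Pgam2 and Pygm, and Pgam1 and Eno3 were the only neighbours whose libraries overlapped. In scrambled it was Eno1, Eno3, Pgam1, Ckm, Pfkm, Ckb, Pfkl, Pygb, Pgam2 and Pygm, with overlap between Ckm and Pfkm and between Ckb and Pfkl. Ckm thus ranked above Pfkl in scrambled and narrowly below it in siMEF2A. In siMEF2A the higher Ckm library was at 17.6 FPKM and the lower Pfkl library at 17.9 FPKM.

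Near-identical copies make the levels of Eno1 and Pgam1 uncertain. Gm5506, a gene on chromosome 18 whose listed transcript shares 1540 of its 1791 bases with Eno1 in exact runs of 100 bases or more, was at 93.8 and 106 FPKM in siMEF2A and at 91.9 and 117 FPKM in scrambled. Its level was between 25.6% and 26.2% of that of Eno1 in each library. Pgam1-ps2, a processed pseudogene on chromosome 7 whose GENCODE M21 transcript of 765 bases lies whole within the Pgam1 transcript, was at 98.6 and 99.9 FPKM in siMEF2A and at 88.3 and 108 FPKM in scrambled. Its level was between 49.0% and 50.4% of that of Pgam1. Each copy thus kept nearly the same proportion to its parent gene in all 4 libraries, and how the authors' estimate divided reads between them is not given in the sources used here. With the copies added to their parent genes, a choice made after the data were seen, the log2 differences were -0.05 for Eno1 and 0.04 for Pgam1. No listed gene shared such a run with the main transcripts of the 7 genes other than Ckm, Eno1 and Pgam1, and the longest exact run shared within a pair was 62 bases, in Pygm and Pygb.

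Replicate libraries differed in a direction common to many genes. Replicate 2 was above replicate 1 for 7 of the 10 genes in siMEF2A and for 9 of 10 in scrambled, beside 62.6% and 65.7% of all genes tested. For Pgam1, Pygb, Eno1, Pfkl and Pfkm the gap between replicates of at least 1 group was larger than that between the group means, whereas for Ckm, Pgam2, Pygm, Ckb and Eno3 the means lay further apart than the replicates of either group.

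Other genes of the same pathways were taken from lists chosen with earlier results of these data known. Of 20 further glycolysis genes tested, 0 passed in limma, beside 1.74% of all genes tested, a share at which lists this short often hold no call. The median log2 fold change of the 20 was 0.06, and 1 gene had an unadjusted p under 0.05. This was Slc16a1, a lactate and pyruvate transporter, at 21.5 and 23.7 FPKM in siMEF2A and 15.2 and 19.9 FPKM in scrambled (limma adjusted p = 0.603). The next smallest p were those of the hexokinase gene Hk1 at 118%, the glucose transporter gene Slc2a1 at 110% and Pfkp, the third phosphofructokinase isoform, at 111% of scrambled (limma adjusted p = 1.00 each). Of 12 glycogen genes tested, 0 passed in limma and 0 had an unadjusted p under 0.05, and their median was -0.02. Gys1, the muscle glycogen synthase that works opposite to the phosphorylases, had the smallest p, at 11.7 and 13.6 FPKM in siMEF2A and 13.9 and 17.1 FPKM in scrambled (limma adjusted p = 0.992). After it came Phkb and Phka2, subunits of phosphorylase kinase, at 113% and 94.9%, and Ugp2, which makes UDP-glucose for glycogen, at 95.6% of scrambled.

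Of 11 genes of creatine and adenylate metabolism tested, 0 passed in limma and 1 had an unadjusted p under 0.05, with a median of 0.01. It was Gatm, the enzyme of the first step of creatine synthesis, at 12.3 and 10.4 FPKM in siMEF2A and 16.7 and 16.5 FPKM in scrambled, a log2 difference of -0.51 (SE 0.15, limma adjusted p = 0.0829). Ak1, a cytosolic adenylate kinase, was at 117%, Adssl1, a muscle adenylosuccinate synthetase, at 85.6%, and its relative Adss at 109% of scrambled (limma adjusted p = 1.00 each). Among the genes of these 3 lists and the 10 isoforms, the calls were thus those of Ckm, Pgam2 and Pygm. With 1.74% of all genes called, 0 calls in lists this short do not set them apart from other genes.

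**Figure D3:**
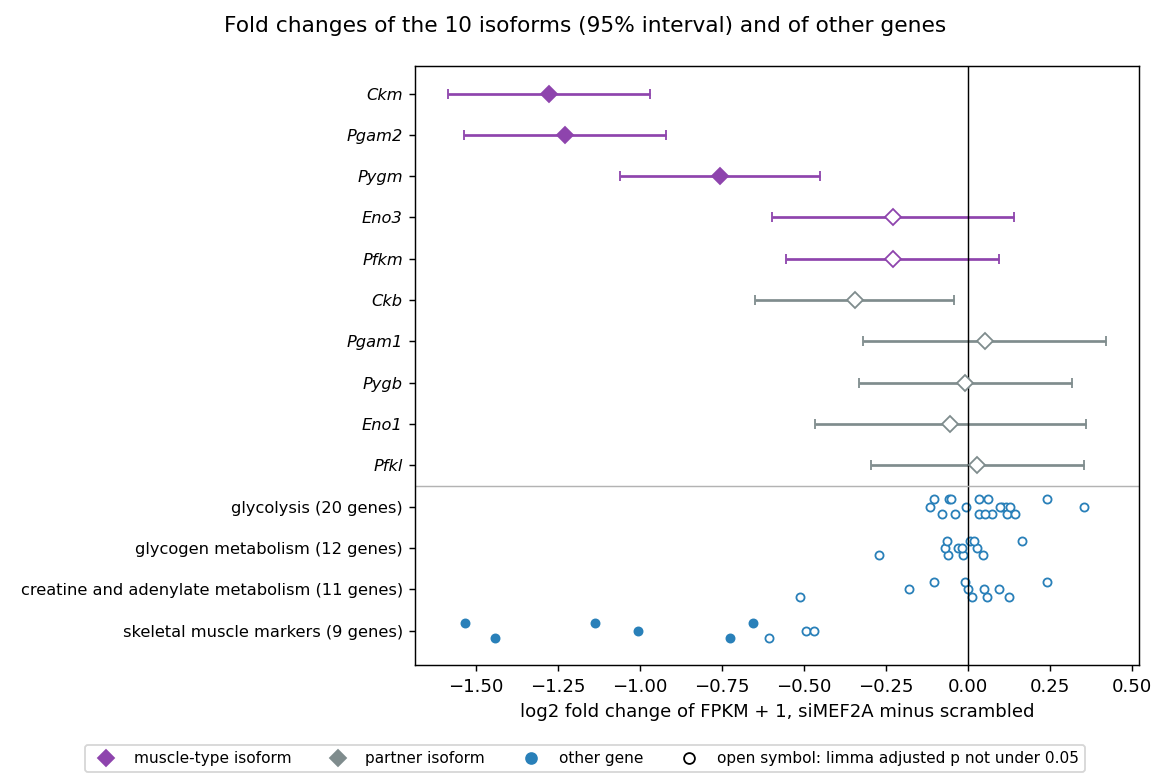
Log2 fold change (siMEF2A minus scrambled) of the 10 isoforms with 95% intervals (diamonds) and of the genes of 4 other lists (circles), with filled symbols for a limma adjusted p under 0.05. Ckm, Pgam2 and Pygm lie between -1.28 and -0.76, the muscle markers all lie below 0, and the genes of the 3 pathway lists lie around 0.

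Markers of skeletal muscle, from a list chosen in the same way, were lower beside the isoforms that fell. Of 9 such markers tested, 6 fell and 0 rose, beside 1.34% of all genes tested called lower and 0.406% called higher. All 9 were lower in both siMEF2A libraries than in both scrambled ones, beside 9.12% of all genes tested. The median log2 fold change of the markers was -0.73. Their summed level was 1037 and 994 FPKM in siMEF2A, against 2188 and 2192 FPKM in scrambled. As examples chosen after their values were seen, Myh3, the embryonic myosin heavy chain, was at 33.0% and Myog, the transcription factor myogenin, at 63.2% of scrambled, while Des, the muscle intermediate filament desmin, was at 71.0% and did not pass (limma adjusted p = 0.301). In such bulk samples, fewer cells that had differentiated and less RNA of these genes per cell cannot be told apart. Of 6 markers of dividing cells 0 passed in limma and 0 had an unadjusted p under 0.05, with a summed level of 47.3 and 45.8 FPKM in siMEF2A and 43.3 and 46.0 FPKM in scrambled. Of 5 fibroblast markers 0 passed and 0 had an unadjusted p under 0.05, with a sum of 1151 and 1432 FPKM in siMEF2A and 865 and 1277 FPKM in scrambled, most of it Col3a1 and Dcn. Both siMEF2A libraries were above both scrambled ones for 2 of these 5, beside 18.8% of all genes tested. Of the adipocyte, cardiomyocyte, blood and endothelial markers, Fabp4, Tnni3 and Cd68 were tested, each under 3 FPKM in every library, and 0 passed, with Fabp4 closest (limma adjusted p = 0.0587, 1 unadjusted p under 0.05). The rest were under the minimum or not among the symbols listed. The part of cell composition in the lower isoform levels was not tested.

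Genes with the most similar profile over the 4 libraries were looked up for each muscle-type isoform, by the distance between log2(FPKM + 1) values centred on each gene's mean. For Ckm they were Cox8b, Fabp3 and Tnnc1, at distances of 0.069, 0.12 and 0.12. Cox8b was at 9.01 and 8.73 FPKM in siMEF2A, against 22.2 and 22.8 FPKM in scrambled. For Pgam2 they were C1qtnf3, Klhl30 and Trim72, at 0.059 to 0.13, and for Pygm Klhl40, Ldb3 and Ank1, at 0.055 to 0.10. These 9 genes were at 29.5% to 54.2% of scrambled, which follows from their choice by likeness to isoforms that fell. For Eno3 they were Stard6, Sox11 and Plekhb1 and for Pfkm Klhl5, Shmt2 and Gfra1, whose choice likewise fixes how far they differ. With 4 libraries, likeness of this kind is a description of these samples.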

How the data were processed

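Per the file headers, the authors deposited FPKM values, 1 per Ensembl transcript in a library, beside identifier, symbol and position. Build mm10 and the tools Cufflinks, TopHat, Bowtie, Trimmomatic and CASAVA come from the submitters' processing notes. Not given in the sources used here were versions, settings, annotation, strand and any scaling between libraries. Such estimates divide reads between isoforms and near-identical genes, which makes short and duplicated transcripts uncertain.

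FPKM were summed over the listed transcripts of a symbol, 35 small RNA symbols were removed, and a gene was tested if its mean reached 1 FPKM (11819 genes). Groups were compared by limma 3.58.1 in R 4.3.3 (eBayes with an intensity trend, 2 residual and 31 prior degrees of freedom, two-sided) on log2(FPKM + 1), with Benjamini-Hochberg adjustment over all genes and a threshold of 0.05, after a test on simulated data. A p thus rests mostly on the spread pooled over genes. Printed adjusted p of 1.00 are rounded. Isoform ratios were tested by exact permutation in scipy 1.17.1. Depth came from the commonest ratio between libraries among 600 low single-transcript genes, shared within 0.3% by 12 or 13 genes, which assumes no other scaling, and no counting interval was computed. Annotation is from GENCODE M21, which holds 97.3% of the transcripts, and upstream sequence from RefSeq. File starts were raised by 1.

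Members, gene lists and tests were chosen with earlier results of these data known. Named genes are the 10 members, Mef2a, the called genes and the 4 smallest p of each pathway list, and the 3 most similar profiles for each muscle-type member. Genes named outside this rule are the near-identical copies and the antisense gene, found by sequence or position, and marker genes, chosen after their values were seen. Alternatives were another pseudocount, filters, scalings, the main transcript alone, no trend, a replicate block, each library left out, copies added and pair ratios without a pseudocount.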

Additional observations from a re-analysis of the deposited data

How the results depend on the processing

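The Ckm and Pgam2 calls held under all 13 alternatives, with log2 fold changes from -1.33 to -1.22 for Ckm and from -1.45 to -1.08 for Pgam2 and limma adjusted p of at most 0.00130 and 0.00127. In the 4 settings that leave out 1 library, the lone library of a group is assumed to vary like the other group, so these calls rest on that assumption. Pygm held under 11 of 12 and was lost without siMEF2A replicate 1 (-0.65, range without 1 library -0.86 to -0.65); at a minimum mean of 5 FPKM it was not tested. Eno3, Pfkm and Ckb were lower and not called under all 13, with smallest limma adjusted p of 0.301, 0.253 and 0.0529, each with the replicate block. Each pair ratio kept its direction under its 11 alternatives, from -0.97 to -0.89 for Ckm/Ckb, -1.53 to -1.12 for Pgam2/Pgam1, -1.17 to -0.64 for Pygm/Pygb, -0.30 to -0.055 for Eno3/Eno1 and -0.32 to -0.20 for Pfkm/Pfkl. Some of these settings cannot change a ratio and only repeat the main value. The replicate block does so for every pair, and added copies for Ckm/Ckb, Pygm/Pygb and Pfkm/Pfkl. The main transcript alone does so for Ckm/Ckb and Pgam2/Pgam1. Median-ratio scaling divides all genes of a library by a common factor, so it can move a ratio only slightly, through the pseudocount.

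Log2 differences near 0 changed sign without passing any test. With median-ratio scaling Pgam1 was at -0.0035 and Pfkl at -0.023, and with quantile normalization Pfkl was at -0.0052 and Eno1 at 0.012. With the most abundant transcript alone, which leaves out ENSMUST00000135717, Pygb was at 0.14. Without 1 library the values ran from -0.11 to 0.21 for Pgam1, -0.21 to 0.20 for Pygb, -0.21 to 0.11 for Eno1 and -0.18 to 0.24 for Pfkl. Why the libraries differ was not tested.

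Over all genes, 133 were called at a minimum mean of 5 FPKM, where fewer genes were tested, 118 with quantile normalization and 514 with the replicate block, and 180 to 222 without 1 library. The labels do not say that numbers pair the libraries. Deviations of same-numbered libraries correlated over genes at 0.288, and the block changed no call among the 10 isoforms.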
